A study of Mus musculus with 2 samples.

Results

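The Eph receptors and ephrins, the Robo receptors and Slit ligands, and the netrins with their receptors were described in *Egr2-Cre*-traced cells around the spinal nerve roots and ganglia of the mouse embryo. The members were chosen by gene symbol alone, as every Eph receptor, ephrin, Robo, Slit and Unc5 gene together with *Ntn1*, *Ntn3*, *Ntn4*, *Dcc* and *Neo1*. The rule found 38 of the 33207 genes counted, made up of 9 EphA and 5 EphB receptors, 5 A-class and 3 B-class ephrins, 4 Robo receptors, 3 Slits, 3 netrins and 6 netrin receptors. The data are 2 droplet-based single-cell RNA sequencing libraries of Tomato-positive cells sorted from *Egr2-Cre*/+; *R26-Tomato* embryos, one for each of the stages E11.5 and E12.5. The labels give the tissue as meninges and the cell type as boundary cap cells, and by the methods the dissected meninges carried the DRGs with their dorsal and ventral roots. *Egr2*, also called *Krox20*, drives the Cre in both groups, so a labelled cell carried Cre activity in itself or in an ancestor. Cells without the reporter were gated out by the sort, and its purity was not checked here. Each stage is 1 library from 1 litter of pooled embryos, so stage, litter and library cannot be told apart, there is no replicate check, and no difference was tested.

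Guidance ligands and receptors steer growing axons and migrating neural crest cells. Eph receptors are tyrosine kinases that bind membrane-held ephrins on neighbouring cells, with A-class ephrins attached by a lipid anchor and B-class ephrins spanning the membrane, and contact often ends in repulsion. Secreted Slits repel cells that carry Robo receptors. Netrins attract through Dcc and Neo1 and repel where an Unc5 receptor takes part, and in the developing trunk these systems keep crest cells, Schwann cell precursors and sensory axons on their paths.

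After the filters, 833 of 1431 cell barcodes remained at E11.5, with a median of 11601 UMIs (counted molecules) per cell, and 3496 of 3762 at E12.5, with a median of 6140. Clusters were named from marker lists. At E11.5, 493 cells were glia-like, 42 neuroblast-like, 99 neuron-like and 61 pericyte-like, and 138 cells stayed unnamed. At E12.5, 1732 cells were glia-like, 760 neuron-like and 314 neuroblast-like. Another 182 were mesenchymal-like, 41 were pericyte-like and 36 were myeloid-like, and 431 stayed unnamed. The glia-like marker list summed to 5131 and 8657 CPM (UMIs of the genes in each 1000000 UMIs of the class) in glia-like cells of the earlier and the later stage, against 315 and 380 in neuron-like cells. The boundary cap markers *Prss56* and *Egr2* bear on the labelled cell type, and both were mostly in glia-like cells. *Prss56* stood at 62.0 CPM (95% interval 55.7–68.9) and 174 (167–182) there, against 0.816 and 1.77 in neuron-like cells. *Egr2* stood at 30.7 (26.2–35.6) and 32.5 (29.2–36.1), against 0.816 and 2.48. At least 1 UMI of *Prss56* was held by 27.0% and 29.9% of glia-like cells, and by 1.01% and 1.18% of neuron-like cells, so most glia-like cells carried none at this depth.

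Levels below are CPM from the UMIs of a gene summed over a class, with exact Poisson intervals, and ratios are ratios of CPM with exact binomial intervals. Both intervals cover counting error only. A gene counted as measured in a comparison with 30 UMIs or more over both groups, and as higher or lower at 2-fold. Capture differs between transcripts, so levels of different genes are not compared. Counting of intronic reads, where it is done, can add UMIs to long genes such as *Robo2* (1556 kb) and *Dcc* (1097 kb), and its part in their levels was not tested. With free RNA in the droplets some UMIs stray between classes. Shares of cells are given after thinning each cell to 2000 UMIs, which all E11.5 cells reached and which 1651 glia-like, 717 neuron-like and 171 mesenchymal-like cells reached at E12.5. The glial gene *Sox10* was then found in 45.6% and 45.1% of the glia-like class, and in the neuron-like class in 0 of 99 cells (a count of 0 leaves room for up to 3.03%) and in 1.12%. The neuronal gene *Stmn2* was found in 78.8% and 90.2% of the neuron-like class, and glial shares were 3.85% and 5.21%. The median depth of glia-like cells was 11685 and 5899.5 UMIs, and that of neuron-like cells 13276 and 7384.

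The guidance genes lay on both sides of the division between glia-like and neuron-like cells. At E11.5, 10 of 25 measured members were higher in glia-like cells, against 22.7% of all measured genes, and 7 were lower, against 12% of all. At E12.5, 9 of 29 were higher (24.2% of all genes) and 6 lower (14% of all). *Epha2*, *Epha4*, *Ephb1*, *Ephb3*, *Ephb4*, *Efna4*, *Slit3* and *Dcc* were higher in glia-like cells at both stages, 8 of the 25 members measured at both, beside 18.3% of the 10604 genes so measured. *Epha5*, *Epha10*, *Efnb2*, *Robo2*, *Ntn3* and *Unc5c* were higher in neuron-like cells at both, 6 of 25, beside 9.26% of all genes. Opposite classes at the stages were found for 0 of the 25 members and for 0.0943% of all genes, so this is common to genes in general. The median log2 ratio of the members was 0.12 and 0.26, and that of all measured genes 0.17 and 0.16. No measured EphB receptor was on the neuronal side. The glia-like class was higher for 3 of 4 at the earlier and 4 of 5 at the later stage, beside 22.7% and 24.2% of all genes. That class holds more UMIs at both stages, so a gene high in it is more readily measured. *Ephb1* and *Ephb3* passed on 78 and 54 glial against 1 and 3 neuronal UMIs at E11.5. *Ephb3* and *Ephb6* passed on 68 and 52 against 3 and 8 at E12.5. The tally is therefore not read as a trait of the EphB receptors.

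**Figure D1:**
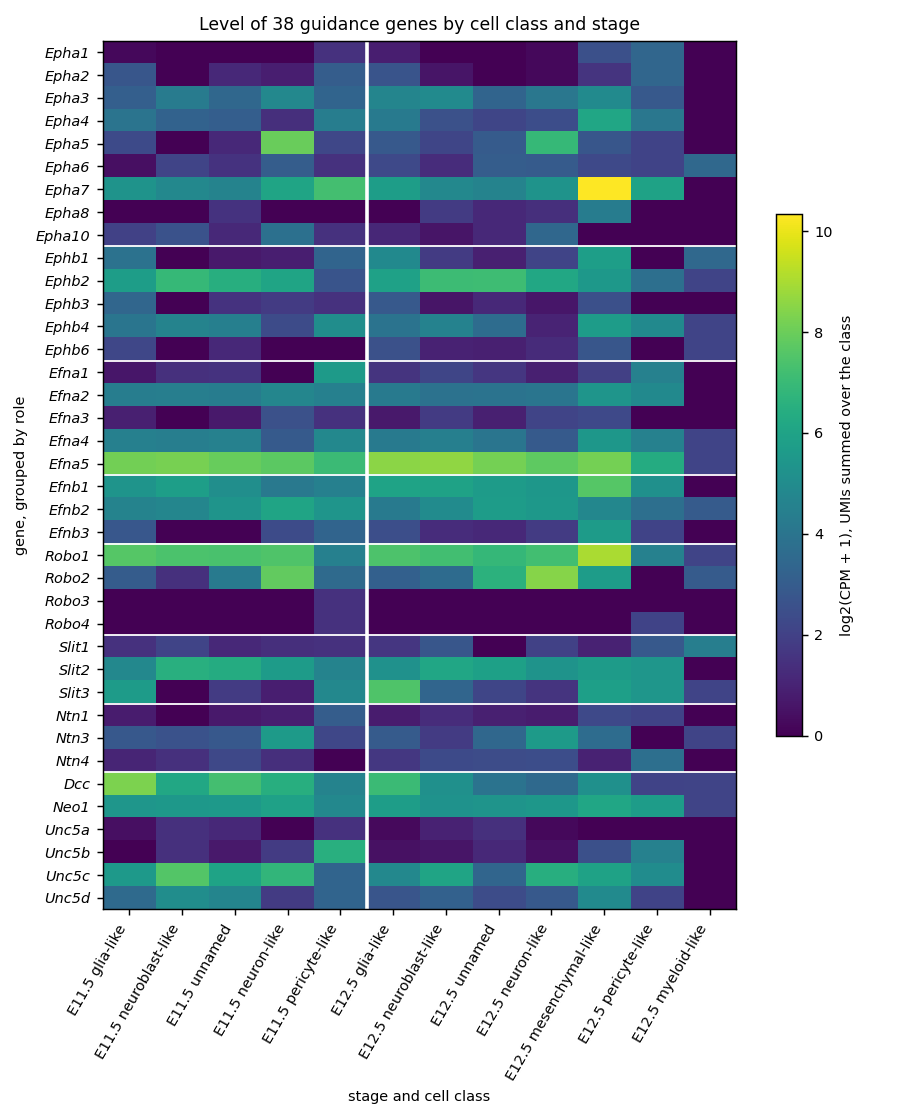
Heat map of the level of the 38 genes in each cell class and stage, as log2(CPM + 1) of UMIs summed over the class, with rows grouped by role and a white line between the stages. *Robo2* and *Epha5* are bright in the neuron-like columns, *Dcc* and *Slit3* in the glia-like columns, and *Epha7* and *Robo1* in the mesenchymal-like column of E12.5.

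The upstream windows of 2 members with opposite sides are shown, *Robo2* for the neuronal and *Ephb1* for the glial side. Each window was picked because it holds a motif named below, so its match was fixed by the choice. The E-box motifs CAGCTG and CAGATG are bound by neurogenic bHLH factors, and ACAAAG and ACAATG are core motifs of Sox factors. Each is the run of 250 bases before a start given in the RefSeq table (GRCm38.p6), found once in GRCm39, printed 5′ to 3′ with the motif in capitals. Both were chosen after the values were seen.
Robo2, chr16:74208714-74208963, minus strand: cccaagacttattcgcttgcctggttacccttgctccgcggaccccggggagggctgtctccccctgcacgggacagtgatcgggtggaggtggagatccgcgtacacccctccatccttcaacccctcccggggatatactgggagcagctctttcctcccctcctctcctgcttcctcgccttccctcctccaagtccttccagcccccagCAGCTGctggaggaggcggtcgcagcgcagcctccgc
Ephb1, chr9:102231893-102232142, minus strand: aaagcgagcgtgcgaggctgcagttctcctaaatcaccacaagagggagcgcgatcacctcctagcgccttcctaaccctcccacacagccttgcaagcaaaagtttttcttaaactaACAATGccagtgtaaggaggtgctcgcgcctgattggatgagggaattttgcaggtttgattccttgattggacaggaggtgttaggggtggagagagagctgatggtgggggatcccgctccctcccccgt
The *Robo2* window is 1 of 3 given for the gene, and the others hold no CAGCTG. The printed window lies within the span of *Robo2* and has 65.6% G and C, and its CAGCTG begins 37 bases before the start. The *Ephb1* window has 54% G and C and an ACAATG that begins 132 bases before the start. Over both strands, CAGCTG was in 13.0% of all 32851 windows, CAGATG in 14.4%, ACAAAG in 16.5% and ACAATG in 10.7%. CAGCTG reads the same on both strands. Of the 8 windows of the 6 genes higher in neuron-like cells, 2 held CAGCTG (*Epha10* and *Robo2*) and 0 held the others. Of 7 windows of glia-side genes, 1 each held ACAAAG (*Efna4*), ACAATG (*Ephb1*) and CAGCTG (*Ephb3*), and 0 held CAGATG. A match describes the letters of a window and is not a measured site, and the part of these motifs in the levels was not tested.

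Slit and Robo genes were split between the classes, with a ligand in glia-like cells and a receptor in neuron-like cells. *Slit3* (chromosome 11, 35011789–35602786, plus strand, GRCm39), a secreted repellent, stood at 50.2 CPM (44.5–56.4) in glia-like cells of E11.5 and at 0.816 in neuron-like cells, from 280 UMIs and 1 UMI. The ratio was 61.5 (10.9–2437). At E12.5 the levels were 178 CPM (170–186) and 1.95 (0.971–3.48), from 1918 and 11 UMIs, a ratio of 91.5 (51.0–184). In thinned cells *Slit3* was found in 8.32% and 26.2% of the glia-like class (27.8% and 49.1% unthinned), and in the neuron-like class in 0 of 99 cells and in 0.279%. The neuronal shares lie at or under those of *Sox10*, and the part of background in them was not tested.

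*Robo2* (chromosome 16, 73688727–75244270, minus strand), a Slit receptor, showed the reverse pattern. Its level was 230 CPM (204–259) in neuron-like and 6.99 (4.97–9.56) in glia-like cells of E11.5, which is 32.9-fold (23.5–47.3) higher in neuron-like cells. At the later stage it was 347 CPM (332–362) and 7.98 (6.39–9.86), 43.4-fold (35.0–54.5) higher. In thinned cells it was found in 29.3% and 45.7% of the neuron-like class (69.7% and 77.1% unthinned). The glial share, 1.22% and 1.27%, was under that of *Stmn2* in the same cells. Glial *Robo2* differed between glia-like clusters, from 0 CPM (0–5.62) to 17.8 (12.2–25.1) at E11.5. At E12.5 it ranged from 1.61 CPM (0.195–5.82) to 20.02 (14.3–27.3). The part of background in these values was not tested. *Robo1* (chromosome 16, 72105194–72844378, plus strand), the other widely expressed Slit receptor, did not divide the classes. Its E11.5 levels were 192 CPM (181–204) on the glial and 177 (154–202) on the neuronal side, a ratio of 1.09 (0.937–1.26). At E12.5 the levels were 174 (166–182) and 147 (137–158), a ratio of 1.18 (1.09–1.28). *Slit2* was within 2-fold at both stages, with 27.6 and 36.2 CPM in glia-like and 50.6 and 38.6 in neuron-like cells.

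Netrin receptors lay on both sides. *Dcc*, the main attractive netrin receptor, stood at 316 CPM (301–331) in glia-like cells of E11.5 and 87.4 (71.6–106) in neuron-like cells, a ratio of 3.62 (2.98–4.44). At E12.5 the levels were 130.5 (124–138) and 10.6 (8.10–13.7), a ratio of 12.3 (9.50–16.2). The neuronal *Dcc* of E11.5 came from 21 of 99 cells, and when the CPM of single cells was averaged in place of the sum the ratio at that stage was 1.00. The share of thinned cells with *Dcc*, which is not moved by a few cells of high level, was 34.7% (30.5–39.1) in the glia-like and 6.06% in the neuron-like class of E11.5, or 62.1% and 21.2% unthinned. The later stage had 16.9% and 1.39%, or 30.4% and 5.92% unthinned. *Unc5c* (chromosome 3, 141170977–141540685, plus strand), a receptor for repulsion, stood at 47.1 CPM (41.6–53.2) in glia-like and 112 (93.9–132) in neuron-like cells, 2.37-fold (1.92–2.93) higher in the latter, at E11.5. The E12.5 levels were 26.9 (23.9–30.2) and 87.6 (80.0–95.6), 3.25-fold (2.81–3.77) higher. The E11.5 value is within 2-fold where neuroblast-like cells count as glia-like. It is also so where unnamed clusters are given their best marker class. That setting counts all neuroblast-like cells, and unnamed clusters that best matched their list, as neuron-like. Neuron-like clusters of E12.5 ranged from 12.3 CPM (8.38–17.3) in 393 cells, under the glia-like level, to 271 (242–302) in 149 cells. *Unc5d*, of the same family, had ratios of 4.46 (1.46–22.2), against 3 neuronal UMIs, and 0.875 (0.569–1.36), and where neuroblast-like cells count as neuron-like the log2 ratio of E11.5 is −0.15. *Neo1*, a receptor for netrins and RGM proteins, stayed within 2-fold, with ratios of 0.714 (0.546–0.943) and 1.20 (1.03–1.39).

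Of the netrins themselves, 1 was on the neuronal side. *Ntn3* (chromosome 17, 24422822–24428570, minus strand), a secreted netrin known from sensory ganglia, stood at 49.0 CPM (37.4–63.1) in neuron-like and 6.27 (4.37–8.73) in glia-like cells of E11.5. It was 7.81-fold (5.06–12.2) higher in neuron-like cells there and 7.13-fold (5.50–9.35) higher at E12.5, at 49.0 (43.4–55.1) against 6.87 (5.39–8.62). *Ntn1*, the netrin of the floor plate, had 10 and 22 UMIs over all kept cells, so it was hardly detected at this depth.

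EphA receptors were divided. *Epha5* (chromosome 5, 84202620–84565348, minus strand), a receptor for A-class ephrins, stood at 251 CPM (223–280) in neuron-like cells of E11.5 and 3.94 (2.47–5.97) in glia-like cells, 63.6-fold (41.2–103) higher in the former. The E12.5 levels were 119 CPM (110–128) and 6.40 (4.98–8.11), 18.5-fold (14.4–24.1) higher. *Epha10*, a receptor without kinase activity, was 4.29-fold (2.03–9.02) and 8.36-fold (4.52–16.6) higher in neuron-like cells, on 33 and 70 UMIs over both classes. On the glial side was *Epha4*, which binds ephrins of both classes. It had 81 UMIs in glia-like and 2 in neuron-like cells of E11.5, 14.5 CPM against 1.63, a ratio of 8.89 (2.38–74.7). Its E12.5 levels were 18.0 (15.6–20.7) against 4.42 (2.86–6.53), a ratio of 4.07 (2.68–6.45). *Epha3* was 3.50-fold (2.15–5.63) higher in neuron-like cells at E11.5, while at E12.5 the ratio of glia-like to neuron-like cells was 1.53 (1.20–1.96). *Epha7* was within 2-fold, at 38.5 and 52.7 CPM on the glial and 64.5 and 38.2 on the neuronal side. *Epha6* was not measured in the earlier library, and in the later its ratio was 0.566 (0.355–0.905).

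Among the EphB receptors, *Ephb1* (chromosome 9, 101799327–102231898, minus strand), whose upstream window is printed above, lay on the glial side. It stood at 14.0 CPM (11.1–17.4) in glia-like cells and 0.816 in neuron-like cells of E11.5, from 78 UMIs and 1 UMI, a ratio of 17.1 (2.98–685). At E12.5 it was 28.8 (25.7–32.2) against 3.36 (2.02–5.25), a ratio of 8.56 (5.39–14.4). *Ephb4*, the ephrin-B2 receptor best known from veins, had ratios of 3.73 (1.54–11.8) and 13.5 (6.05–37.3). Both are within 2-fold where unnamed clusters are given their best marker class and neuroblast-like cells count as neuron-like. With marker gates on single cells its E11.5 ratio is 1.09, and with neuroblast-like cells counted as neuron-like it is 1.45. *Ephb3* had ratios of 3.95 (1.28–19.8) and 11.9 (3.90–59.1), each against 3 neuronal UMIs. *Ephb2* (chromosome 4, 136374850–136563351, minus strand), the remaining well-counted EphB receptor, stayed within 2-fold, at 53.1 and 60.1 CPM in glia-like and 64.5 and 72.2 in neuron-like cells.

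The ephrins differed less. *Efna5* (chromosome 17, 62909956–63188312, minus strand), a ligand of the EphA receptors, was found in nearly every class, at 279 CPM (266–293) in glia-like and 213 (188–241) in neuron-like cells of E11.5. At E12.5 it was 375 (364–387) and 215 (203–227), a ratio of 1.75 (1.64–1.86). *Efnb2*, a ligand of the EphB receptors and of *Epha4*, was on the neuronal side, with 63.7 CPM (50.3–79.5) against 23.5 (19.6–27.9) at E11.5, 2.71-fold (2.02–3.62) higher, and 44.0 against 17.5 at E12.5, 2.51-fold (2.07–3.05) higher. *Efna4* was on the glial side, with ratios of 3.27 (1.60–7.74) and 2.77 (1.94–4.04). *Efnb1*, a B-class ephrin, was 2.33-fold (1.49–3.84) higher in glia-like cells at E11.5 and 1.46-fold (1.26–1.70) at E12.5. *Efna2* had ratios of 0.748 (0.5003–1.15) and 1.18 (0.909–1.54) and *Efnb3* of 1.45 (0.562–4.75) and 1.87 (1.02–3.67), so both stayed within 2-fold. The E11.5 values of *Efna4*, *Efnb1* and *Efnb2* and the E12.5 value of *Efna4* are within 2-fold where unnamed clusters are given their best marker class and neuroblast-like cells count as neuron-like. All of them are also within 2-fold with marker gates on single cells. Those of *Efna4* and *Efnb1* are so where neuroblast-like cells count as neuron-like, and that of *Efnb2* with CPM averaged per cell. In a shallow glia-like cluster of 90 cells at E11.5, with a median of 2826.5 UMIs, *Efnb2* stood at 110 CPM (75.6–154). In neuron-like clusters it stood at 57.0 and 67.1.

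**Figure D2:**
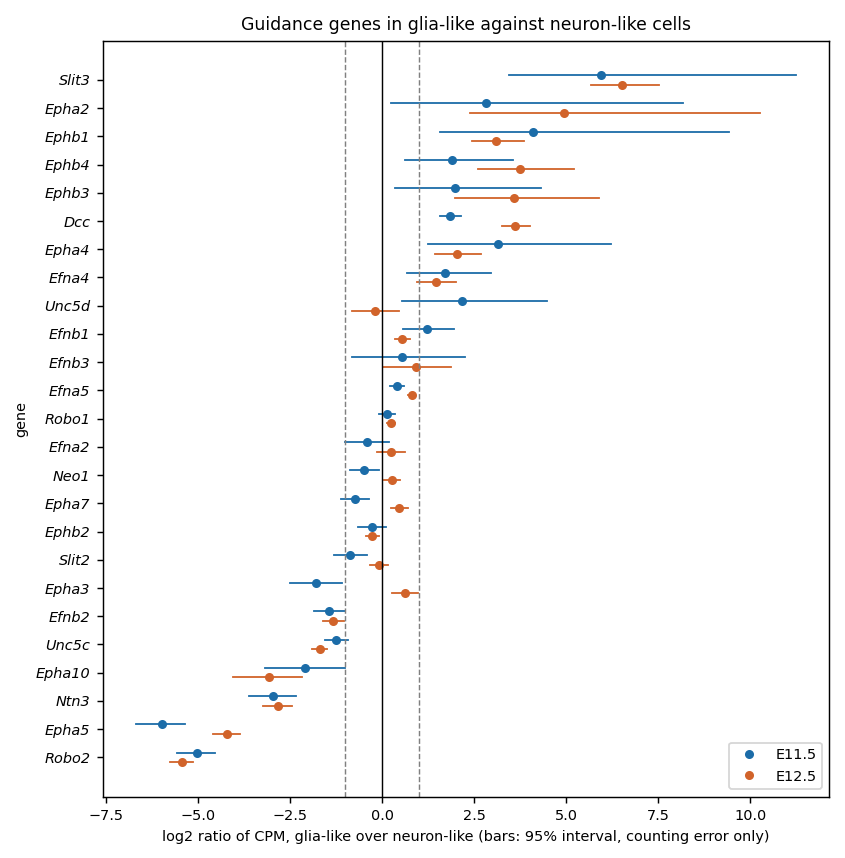
Log2 ratio of CPM in glia-like over neuron-like cells for the members measured at both stages, with bars for the 95% interval of counting error and dashed lines at 2-fold. *Slit3*, *Ephb1* and *Dcc* lie to the right of the dashed line at both stages, and *Robo2*, *Epha5* and *Ntn3* to the left.

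The members also varied among glia-like clusters. Guidance genes and their partners had been kept out of the genes used for clustering. *Dcc* was highest in a cluster of 117 cells at E11.5, led by genes such as *Lrrc7*, *Kcnip4*, *Npy* and *Prss56*, at 693 CPM (651–737). The lowest glia-like cluster, at 110 (75.6–154), was a shallow one of 90 cells with a median of 2826.5 UMIs. At E12.5 *Dcc* was highest in a cluster of 153 cells led by *Npy*, *Mdga2* and *Cntn3*, at 604 CPM (557–654), against 46.1 (36.7–57.1) in the lowest. The *Dcc*-high clusters are the ones of 117 and 153 cells. These clusters were also the highest for *Ephb1*, at 41.0 (31.4–52.7) and 105 (85.9–127) CPM, and for *Robo1*, at 296 (269–326) and 378 (341–418). *Epha3* was lowest in both, from 2 UMIs in each. *Slit3* was lowest in the *Dcc*-high cluster at E12.5, at 40.0 CPM (28.6–54.5). It was highest in clusters with *Egfl8* among their leading genes, at 102 CPM (87.9–118) in 139 cells of E11.5 and 349 (322–377) in 297 cells of E12.5. The lowest *Slit3* of E11.5, 6.66 CPM, was in the shallow cluster of 90 cells.

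Single glia-like cells were also sorted by 1 UMI or more of a marker, which does not pick out the clusters above. At E12.5 *Prss56* was among the leading genes of another glia-like cluster, of 433 cells, and not of the *Dcc*-high one. That cluster was the lowest glia-like one for *Robo1*, at 69.6 CPM (58.5–82.1), and the highest for *Epha3*, at 61.6 (51.2–73.4). In *Prss56*-positive cells (133 and 518 cells, median depths 13166 and 5532.5 UMIs) *Ephb1* stood at 30.8 CPM (23.1–40.2) and 74.2 (65.0–84.3), against 6.28 (4.02–9.34) and 9.75 (7.65–12.2) in *Prss56*-negative cells (medians 11023.5 and 6005). *Dcc* stood at 396 CPM (367–426) and 219 (203–236) in *Prss56*-positive cells, against 280 (263–297) and 93.4 (86.6–101). These intervals cover counting error only. How many of all genes differ as much between these cells was not computed, and the part of depth was not tested. *Slit3* was 81.0 CPM (67.5–96.5) in cells with *Itga4*, an integrin gene, and 38.3 (32.5–44.8) without it in the E11.5 library, and 235 (212–260) and 168 (160–177) in that of E12.5. In cells with the Notch target *Hes5* the order was the reverse, at 19.2 CPM (9.20–35.3) with and 53.4 (47.2–60.1) without in the earlier library and 114 (97.6–132) and 189 (180–198) in the later.

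Neuron-like clusters differed in *Epha5*, *Unc5c* and *Epha3*. In 31 cells of E11.5 led by *Stmn2* and *Nefl*, *Epha5* reached 537 CPM (469–612), against 101 (80.0–125) in the other 68 neuron-like cells. *Unc5c* was 204 (164–252) and 63.4 (47.2–83.4) in the same clusters, and *Epha3* 61.8 (40.4–90.6) and 8.70 (3.50–17.9). All these genes were higher in the cluster led by *Stmn2* and *Nefl*. At E12.5 the cluster led by *Sncg* and *Nefl* (149 cells) was again highest, with *Epha5* at 170 CPM (148–195), *Unc5c* at 271 (242–302) and *Epha3* at 61.2 (48.1–76.9). The largest neuron-like cluster of that stage (393 cells) was lowest for each, at 70.1, 12.3 and 3.06 CPM. *Robo2* varied less, between 208 (177–242) and 273 (226–328) CPM at E11.5 and between 304 (283–326) and 390 (362–420) at E12.5.

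Receptor genes of sensory subtypes marked the same spread. In E11.5 neuron-like cells with *Ntrk3*, the neurotrophin receptor of proprioceptive and some mechanoreceptive neurons, *Epha5* was 388 CPM (341–440) in 46 cells, against 103 (79.0–133) in 53 cells without. At E12.5 it was 182 (154–213) in 105 cells and 107 (98.4–117) in 655. Cells with *Th*, which some sensory neurons carry besides sympathetic ones, numbered 86 at E12.5. Their *Unc5c* was 234 CPM (203–268) against 60.6 (53.8–68.0), and their *Ephb2* was 29.5 (19.3–43.2) against 80.1 (72.2–88.5). The median depth was 10139 UMIs with *Th* and 7152.5 without, and the part of depth in these values was not tested. *Dcc* in E11.5 neuron-like cells was 16.1 CPM (8.32–28.1) in 59 cells with *Neurog1*, a sensory neurogenesis factor, and 198 (160–242) in 40 cells without. It was found in 21 of the 99 cells, and the intervals do not cover spread between cells.

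**Figure D3:**
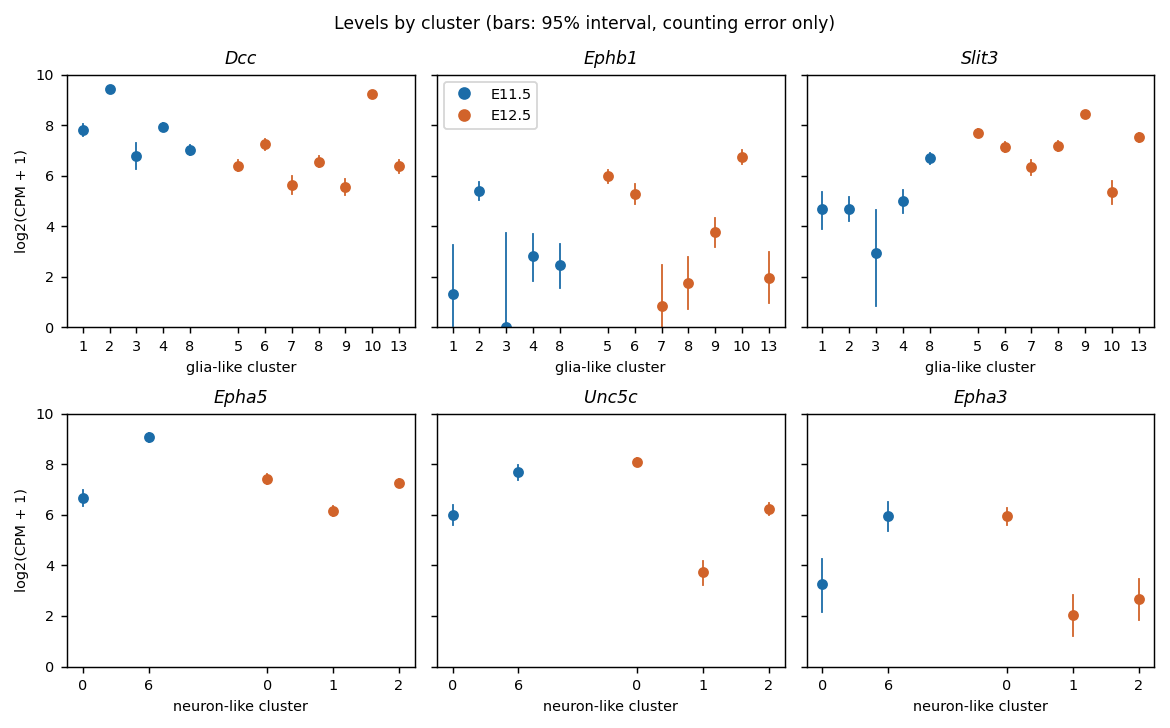
Levels of 6 genes as log2(CPM + 1) in each glia-like cluster (top row) and neuron-like cluster (bottom row) of both stages, with bars for the 95% interval of counting error. *Dcc* and *Ephb1* peak in glia-like clusters 2 (E11.5) and 10 (E12.5), where *Slit3* does not, and *Epha5*, *Unc5c* and *Epha3* peak in neuron-like clusters 6 (E11.5) and 0 (E12.5).

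Neuroblast-like cells had high levels of some members. *Unc5c* stood at 189 CPM (155–227) in them at E11.5 and 64.3 (53.8–76.3) at E12.5. *Slit2* stood at 90.1 (67.5–118) and 69.2 (58.2–81.6), and *Ephb2* at 121 (94.2–152) and 134 (119–151). For all these genes the E11.5 interval lay above that of every other named class, while at E12.5 this held for *Ephb2* alone. They are the 3 with an interval apart among the 6 described members highest in this class at E11.5. The share of all genes so apart was not computed. The unnamed cells overlapped these values for *Ephb2*, at 89.1 (75.1–105) and 137 (122–152) CPM, and for *Slit2* of E11.5, at 80.3 (67.0–95.5). Their *Unc5c* of E11.5 was lower, at 62.8 (51.1–76.3). The neuronal genes *Robo2* and *Epha5* were low in the neuroblast-like cells, at 1.70 and 0 CPM at E11.5 and 11.3 and 3.44 at E12.5. The glial gene *Slit3* was at 0 and 9.33 there. The unnamed cells, whose clusters best matched the neuroblast-like list except for 56 cells of E11.5 that best matched the glia-like list, held *Robo2* at 18.2 (12.2–26.1) and 99.1 (86.7–113) CPM. At E12.5 the neuroblast-like class also held 2829 CPM of the erythroid marker list, and the part of that RNA in its values was not tested.

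Non-neural cells were set against glia-like and neuron-like cells together. At E11.5 the non-neural cells were the 61 pericyte-like cells. Of 27 measured members, 4 were higher in them (11.7% of all genes) and 10 lower (15.8% of all), so the higher count was near that of all genes. *Unc5b* (chromosome 10, 60598372–60667396, minus strand), the Unc5 receptor of blood vessels, stood at 91.7 CPM (68.3–121), with 51 UMIs against 3 UMIs in the neural classes, a ratio of 208 (67.3–1042). *Efna1*, an ephrin known from endothelium, had 27 UMIs against 3, a ratio of 110 (33.9–567), but all 27 were in 1 of the 61 cells, so the value is that of a single cell. *Unc5b* was in 30 of the 61. The pericyte-like cells also held the whole endothelial marker list, 10 of 10 genes, at 877 CPM in the earlier library and 1294 CPM in the later, against 12.2 to 26.2 in the glia-like and neuron-like classes, and its part in these values was not tested. Lower by the most were *Epha5*, 13.4-fold (3.69–111) on 2 UMIs, *Dcc*, 11.8-fold (6.86–22.1), *Ephb2*, 10.2-fold (3.47–49.8) on 3 UMIs, and *Robo1*, 8.79-fold (5.01–17.1). *Epha7* was 3.45-fold (2.67–4.42) higher, and 1.34-fold without the doublet filter.

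At E12.5 the non-neural cells were mostly mesenchymal-like, and pooled with the others 10 of 31 members were higher (13.5% of all genes) and 7 lower (13% of all). The median log2 ratio of the members was −0.44 for E11.5 and 0.09 for E12.5, set beside −0.11 and −0.03 for all genes. In mesenchymal-like cells on their own 11 of 30 members were higher (13.4% of all) and 6 lower (13.6% of all). *Epha7* (chromosome 4, 28813034–28967507, plus strand), a receptor for A-class ephrins, reached 1287 CPM there, with 1340 UMIs in 182 cells, 27.0-fold (24.7–29.5) above the neural classes. It was found in 84.8% of thinned mesenchymal-like cells (96.2% unthinned) and in 8.53% of the pooled neural classes. *Robo1* stood at 518 CPM (475–563), 3.15-fold (2.86–3.45) higher, and was found in 60.2% of thinned cells, against 25.5% of the neural classes. *Efnb1* stood at 195 (169–224), 3.48-fold (2.97–4.05) higher, and *Efnb3*, another B-class ephrin, at 49.9 (37.3–65.5), 12.8-fold (8.71–18.8) higher. *Epha4*, *Ephb4* and *Unc5d* were 5.11-fold (3.86–6.71), 5.23-fold (3.76–7.17) and 5.09-fold (3.28–7.71) higher. *Ephb1* and *Efna4* were 2.73-fold (2.03–3.63) and 3.06-fold (2.17–4.23) higher. *Ephb1* stood at 54.7 CPM (41.5–70.9), above its 28.8 (25.7–32.2) in glia-like cells. *Epha4*, *Ephb4*, *Ephb1* and *Efna4* were thus on the glial side against neuron-like cells and also high here. Of the genes higher in neuron-like cells, *Epha5* and *Robo2* were lower here, by 7.81-fold (3.57–21.3) and 2.40-fold (1.83–3.21). *Slit3* was at 55.7 CPM (42.3–72.0), 2.11-fold (1.62–2.79) lower than in the pooled classes. That is under its 178 (170–186) in glia-like cells but above its level in neuron-like cells.

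The pericyte-like cells of E12.5 had 5 of 30 members higher (12.4% of all genes) and 11 lower (14.3% of all). *Efna1* and *Unc5b* each had 7 UMIs in these 41 cells, 22.4 CPM (8.99–46.1), in 5 cells for each gene. *Robo1* was 7.36-fold (3.57–18.3) lower, as it had been in those of E11.5. *Robo2* had 0 UMIs and was at least 13.0-fold lower, with 3 counts set for the class. In the 36 myeloid-like cells the members summed to 26 UMIs.

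**Figure D4:**
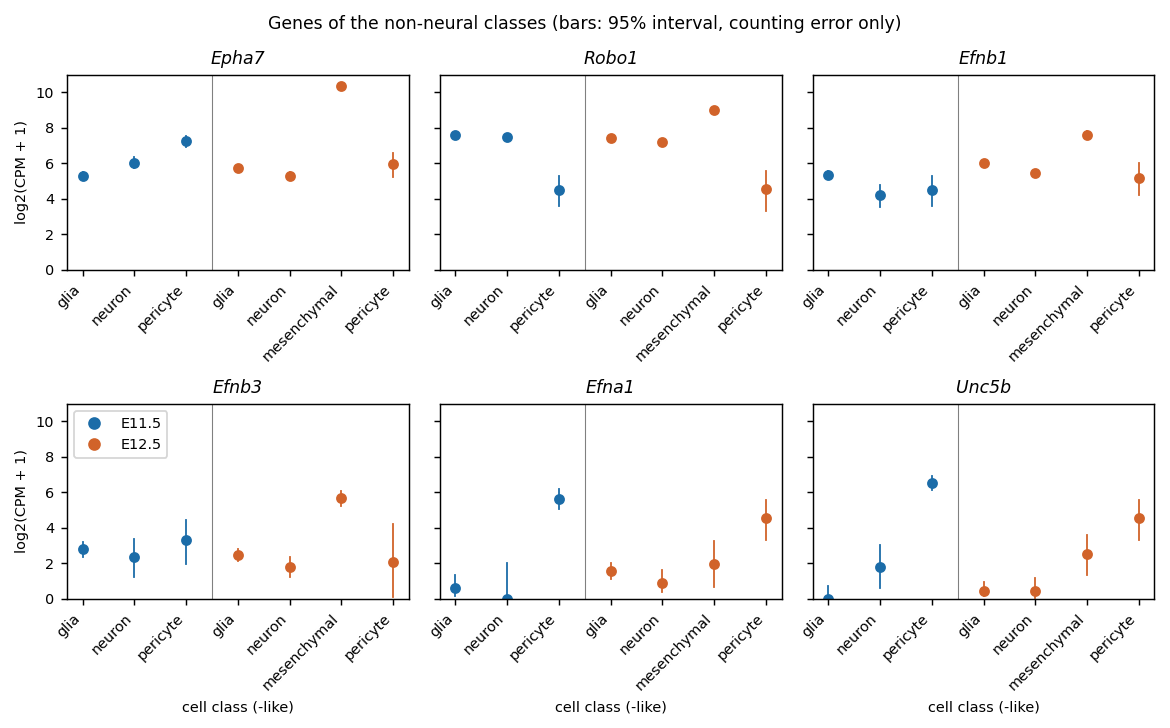
Levels of 6 genes as log2(CPM + 1) in glia-like, neuron-like and non-neural classes at E11.5 (left of the line) and E12.5 (right), with bars for the 95% interval of counting error. *Epha7*, *Robo1*, *Efnb1* and *Efnb3* are highest in mesenchymal-like cells of E12.5, and *Efna1* and *Unc5b* in pericyte-like cells, where the E11.5 point of *Efna1* comes from 1 cell.

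Between the stages most measured members stayed within 2-fold, although the shares past it were, on small counts, above those of all genes. In glia-like cells 5 of 29 measured members were higher at E12.5, against 8.44% of all genes, and 2 lower, against 1.55%. The median log2 ratio was 0.19 for the members and 0.11 for all genes. *Slit3* was 3.55-fold (3.13–4.04) higher and *Epha3* 3.23-fold (2.33–4.56), from 7.71 CPM (5.58–10.4) to 24.9 (22.0–28.0). *Epha6* had 41 UMIs against 2, a ratio of 10.6 (2.76–90.6). *Ephb1* was 2.06-fold (1.60–2.67) and *Ntn4* 2.07-fold (0.825–6.20) higher, and without the shallow cluster of E11.5 both were within 2-fold. *Dcc* was 2.42-fold (2.26–2.60) lower at E12.5 and *Epha10* 2.53-fold (1.16–5.65) lower, although the 17 UMIs of *Epha10* at E11.5 were in 4 cells and with a doublet score under 0.1 it was 1.20-fold higher.

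In neuron-like cells 2 of 19 members were higher at E12.5 (7.32% of all genes) and 2 lower (2.38% of all), with median log2 ratios of −0.35 for the members and 0.07 for all genes. *Dcc* was 8.23-fold (5.95–11.49) lower, so that it was lower at the later stage in both classes. Its neuronal level at E11.5 came from 21 of 99 cells. *Epha5* was 2.11-fold (1.84–2.42) lower and *Efnb1* 2.51-fold (1.60–4.12) higher, but where neuroblast-like cells count as neuron-like both are within 2-fold, at 1.92-fold and 1.63-fold, as they are with marker gates on single cells, at 1.57-fold and 1.84-fold. *Unc5d* had 36 UMIs against 3, a ratio of 2.60 (0.821–13.2), and its direction turns with the class boundary. *Robo2* was 1.51-fold (1.33–1.71) higher. The libraries differ in depth, litter and class makeup along with stage, and the part of these in the values cannot be told apart.

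**Figure D5:**
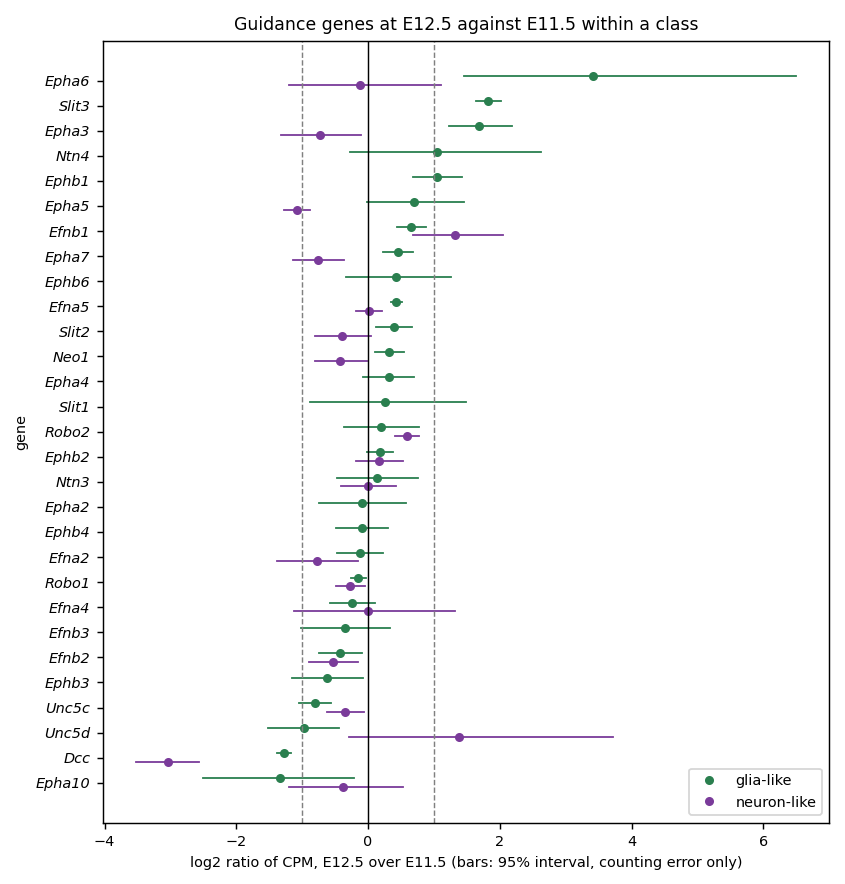
Log2 ratio of CPM at E12.5 over E11.5 within glia-like and within neuron-like cells, with bars for the 95% interval of counting error and dashed lines at 2-fold. *Slit3* and *Epha3* lie to the right of the dashed line in glia-like cells, and *Dcc* lies to the left in both classes.

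Of the 38 members, 23 had 100 UMIs or more in either library. The other 15 had few counts, given here over all kept cells of E11.5 and E12.5. *Robo3*, the commissural Robo, had 1 and 0 UMIs, and *Robo4*, the endothelial Robo, had 1 and 1, all of them in pericyte-like cells. *Unc5a* had 6 and 9 UMIs, *Epha1* 2 and 18, and *Epha8* 3 and 37, of which 20 were in mesenchymal-like cells. *Slit1* had 17 and 61, *Ntn4* 15 and 72 and *Efna3* 13 and 37. *Epha2*, which was on the glial side, had 39 and 65 UMIs, of which 32 and 58 were glial and 1 at each stage was neuronal. The remaining low members, *Efna1*, *Unc5b*, *Ntn1*, *Epha10*, *Ephb3* and *Ephb6*, had between 10 and 80. *Ephb6*, a kinase-dead receptor, was 3.41-fold (1.61–8.32) higher in glia-like cells at E12.5.

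Pairs of members in the same cell were read for 6 pairs in glia-like and neuron-like cells of each stage, after thinning. The share of cells with both genes held the product of the separate shares within its interval in 24 of 24 cases. Some cases could not or could hardly fail, since 0 E11.5 neuron-like cells held *Epha4* after thinning. Without thinning 23 of 24 did so. The exception was *Robo1* with *Slit2* in E11.5 glia-like cells, at 17.4% (14.2–21.1) against a product of 14.1%, and the part of depth in it was not tested. *Robo1* and *Robo2* were found together in 8.08% (3.55–15.3) of the E11.5 neuron-like class, where the product was 9.76%, and in 10.9% (8.69–13.4) at E12.5, where it was 11.2%. *Epha5* was found with its ligand gene *Efna5* in 13.1% (7.18–21.4) and 5.86% (4.25–7.84) of neuron-like cells, with products of 10.4% and 5.76%. At the thinned depth neither excess nor avoidance was detectable for these pairs.

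A list of 55 other genes of the pathways, such as netrin ligands of the membrane, alternative receptors and adaptors, was read the same way. At E11.5, 12 of 48 measured were higher in glia-like and 9 in neuron-like cells, beside 22.7% and 12% of all genes. At E12.5 the counts were 12 and 16 of 52, beside 24.2% and 14%, so the glial counts are near those of all genes. *Dscaml1*, an adhesion molecule related to the netrin receptor Dscam, was 246-fold (82.7–1205) and 36.3-fold (26.5–50.9) higher in neuron-like cells. *Trim9*, a ubiquitin ligase that binds Dcc, was 40.5-fold (21.0–87.4) and 26.4-fold (17.6–41.3) higher there. Among those on the glial side, *Dock1*, an exchange factor for Rac, had ratios of 20.2 (9.20–55.2) and 35.8 (22.3–61.7), and *Srgap2*, a Slit-Robo GTPase-activating protein, 61.0 (10.9–2419) and 9.57 (6.93–13.6). *Nell2*, a secreted ligand of Robo3, had 10.4 (6.44–17.9) and 12.04 (9.83–14.9). *Ntng1* had 19.4 (5.30–162) and 9.86 (7.64–12.9), and *Flrt3*, which binds Unc5 and Robo receptors, 28.3 (10.97–104) and 11.8 (8.63–16.7). *Ntn5* had 119 UMIs on the glial and 0 on the neuronal side of E11.5, 8.71-fold higher with 3 counts set for the neurons. Its ratio was 64.5 (25.1–238) at E12.5.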

How the data were processed

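UMI counts of 2 libraries were used, as deposited: whole numbers for each of 33207 genes and each called barcode, not normalized. The authors made these counts with Cell Ranger (7.0 in the submitters' notes, 7.0.1 in the matrix header) on mm39, and whether intronic reads were counted is not given in the sources used here. The *Prss56-Cre* library was not analysed here.

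Cells with more than 10% mitochondrial UMIs, with fewer than 2000 (E11.5) or 1000 (E12.5) UMIs or scored 0.2 or above by Scrublet were removed, after the methods text. The libraries shared 9 deposited and 7 kept barcodes. Each library was clustered alone (scanpy 1.11.5, igraph 0.11.9, 3000 variable genes, 30 components, 15 neighbours, Leiden resolution 1), with the 38 members and the 55 partner genes kept out of the variable genes. A cluster was named for the class whose markers it held in the largest proportion, each in 20% of its cells, and stayed unnamed where its 10 leading genes held more markers of another class. Intervals are 95% (scipy 1.17.1). A class at 0 was set at 3 counts. Ratios were computed on simulated counts that held counting error alone, which cannot test them against spread between cells. With 1 library per stage, no test between samples was made. Members with 100 UMIs or more in either library are described, the others counted, and up to 8 partner genes past 2-fold the same way at both stages are named by the smaller of their folds. Gene positions are from GENCODE M39 on GRCm39. The members and lists were chosen with earlier results of these data known, and the naming rule for clusters was taken from earlier work on them.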

Additional observations from a re-analysis of the deposited data

Results flagged for a closer look

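*Robo1* in non-neural cells went in opposite directions at the stages. Its ratio of CPM to that of glia-like and neuron-like cells was 0.114 at E11.5 and 2.01 at E12.5, from 12 and 547 non-neural UMIs, and without the doublet filter the later ratio was 1.92. The non-neural cells were pericyte-like alone at E11.5 and mostly mesenchymal-like at E12.5, and in pericyte-like cells of E12.5 *Robo1* was also lower than in the neural classes, by 7.36-fold (3.57–18.3). The difference between the stages was not tested, since each is 1 library.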

How the results depend on the processing

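The 12 counts of members past 2-fold were recomputed under 15 preset settings and 2 chosen after seeing the data: 174 values were within 1.5 times the reported count and 30 were not, most of them between the stages, where the counts are small. The setting that assigns unnamed clusters to their largest marker class also counts all neuroblast-like cells as neuron-like. Unnamed clusters that best matched the neuroblast-like list count as neuron-like in it too. In neuron-like cells, members higher at E12.5 numbered 4 (resolution 0.5), 1 (resolution 2, CPM averaged per cell, genes with 100 UMIs or more, or unnamed clusters given their largest marker class), 6 (10 UMIs or more) and 0 (3-fold). Members lower numbered 5 (resolution 2, guidance genes allowed among the variable genes, doublet score under 0.1, or 1.5-fold), 4 (averaged per cell) and 1 (neuroblast-like counted as neuron-like, 3-fold, or unnamed clusters assigned). In glia-like cells, members higher numbered 3 at resolution 2, doublet score under 0.1, scaling by the median ratio, 100 UMIs, 3-fold or without the shallow cluster, and members lower 4 (averaged per cell), 1 (100 UMIs), 5 (1.5-fold) and 0 (3-fold). With 100 UMIs or more, 4 members were higher and 4 lower in glia-like against neuron-like cells at E11.5, and 2 were higher in non-neural cells. At 3-fold, 6 were higher and 3 lower in the non-neural cells of E12.5. The counts of glia-like against neuron-like cells at E12.5 moved by 1.5 times or less under each setting. The number of members measured and the share of all genes past the fold can change with these settings too. They are not given here, so these counts are not read against all genes.

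Of 74 single ratios past 2-fold, 23 came within 2-fold under 1 or more settings and 5 values changed sign: *Unc5d* in neuron-like cells between stages (log2 −0.93 with marker gates, −0.82 with neuroblast-like counted as neuron-like, −0.74 with unnamed clusters assigned), *Unc5d* in glia-like against neuron-like cells of E11.5 (−0.15 with neuroblast-like counted as neuron-like) and *Epha10* in glia-like cells between stages (0.26 with a doublet score under 0.1). The causes were not tested. No paired analysis was possible because each stage is 1 library. Depth limits the 15 members under 100 UMIs and the classes under 100 cells most.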
